A study of Mus musculus with 7 samples.

Results

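Peaks of CTCF and of its paralogue CTCFL (BORIS) were examined along the 4 mouse Hox clusters, which hold the 38 Hox genes listed for this account. Members were all deposited peaks that overlapped by at least 1 bp one of 4 fixed windows of the mm9 genome: HoxA at chr6:52090000-52270000, HoxB at chr11:96040000-96240000, HoxC at chr15:102740000-102880000 and HoxD at chr2:74490000-74620000. The windows were set by position and not by a peak value, though with earlier results of these data known. They span 650 kb and held 180 of the 100560 peaks of the series. Of the 180 peaks, 94 were 3T3 CTCF, 46 were 3T3 CTCFL, 31 were P19 CTCF and 9 were P19 CTCFL peaks. Merged where they overlapped, the 180 peaks formed 114 regions of the 65700 of the series: 37 in HoxA, 27 in HoxB, 26 in HoxC and 24 in HoxD.

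The study mapped both proteins by chromatin immunoprecipitation and sequencing in NIH3T3 cells, an embryonic fibroblast line, and in P19 cells, a pluripotent embryonal carcinoma line. The 3T3 cells analysed here carried the stably integrated plasmids pBI-EGFP-FLAG-mCtcfl and pTA-N, named for a FLAG-tagged mouse Ctcfl gene. Both P19 samples list the same plasmids, yet their titles read "p19 control", and it is unclear if P19 cells had been induced. The one treatment text common to all samples gives growth in 2 µg/ml doxycycline and induction by 48 h without it. Antibody N2.2 was used for CTCF and antibody S6 for CTCFL. Neither CTCFL list was set here against cells without the plasmids, and the control library behind the peak calls is not given in the sources used. The part of antibody background in these lists was not tested. With 1 library behind each list, differences cannot be set against replicates, and p-values are not given. Intervals are exact (Clopper-Pearson) 95% intervals that cover counting error alone. Read depth is not given in the sources used here.

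Hox genes encode homeodomain transcription factors that give cells their position along the body axis. Their order along each chromosome follows the order in which they act, from the head side (paralogues of low number, such as Hoxb1 and Hoxa2 in the hindbrain) to the tail and limb ends (Hoxa13, Hoxd13). CTCF is a zinc-finger protein that stops the loop-forming cohesin complex and insulates chromatin domains, and in Hox clusters it is known for separating active from silenced genes. CTCFL shares the zinc fingers of CTCF but differs in its ends, and is normally restricted to male germ cells.

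The order of the genes was read from a RefSeq table of build GRCm38.p6, which listed all 38. Since the peaks are in mm9, that table was used for names and order only, and no peak was assigned to a gene. With rising position, HoxA runs from Hoxa2 (hindbrain and second-arch identity) to Hoxa13 (digits and genital tract) and on to Evx1. HoxB runs the other way, from Hoxb13 over Hoxb9 to Hoxb1. HoxC starts with Hoxc13, a hair follicle gene, and ends with Hoxc4, and HoxD runs from Evx2 and Hoxd13 to Hoxd1. The low end of a window is thus the Hoxa2 side of HoxA but the Hox13 side of the other 3.

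No sequence of the peaks themselves could be read without a genome of their build, so sequence is shown for promoters of member genes. The RefSeq promoter table (GRCm38.p6, 250 bases before to 50 after a start) held 24 entries for 22 of the 38 genes. They were searched on both strands for AGGGGGC and AGGTGGC, short words from the core of the textbook CTCF motif. The 2 words cannot overlap on one strand. Of the 24 entries 3 held a word, against 16.0% of all 32851 entries (10.6% for AGGGGGC and 6.15% for AGGTGGC). The 3 belonged to Hoxd13, Hoxa10 and Hoxa11. They are shown because they let a reader see such words in Hox promoters. Whether a peak covers them was not examined, and a word is a match of letters, not a binding site. The 250 bases before each start are printed from 5′ to 3′ on the strand of the gene, with the words or their reverse complements in capitals. The Hoxd13 stretch lies at chr2:74667975-74668224 (plus strand), that of Hoxa10 at chr6:52240855-52241104 (minus strand) and that of Hoxa11 at chr6:52245811-52246060 (minus strand), in GRCm38.p6 positions that cannot be set beside the mm9 positions of the peaks.
Hoxd13: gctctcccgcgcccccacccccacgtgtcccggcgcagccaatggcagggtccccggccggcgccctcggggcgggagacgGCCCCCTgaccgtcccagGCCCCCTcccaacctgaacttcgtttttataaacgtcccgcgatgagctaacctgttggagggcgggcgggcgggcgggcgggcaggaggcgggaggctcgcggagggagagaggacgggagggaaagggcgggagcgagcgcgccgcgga
Hoxa10: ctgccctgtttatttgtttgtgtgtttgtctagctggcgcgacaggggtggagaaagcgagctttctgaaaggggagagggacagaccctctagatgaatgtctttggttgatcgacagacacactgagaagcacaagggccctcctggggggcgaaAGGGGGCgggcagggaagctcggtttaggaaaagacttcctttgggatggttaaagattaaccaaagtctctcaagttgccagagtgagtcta
Hoxa11: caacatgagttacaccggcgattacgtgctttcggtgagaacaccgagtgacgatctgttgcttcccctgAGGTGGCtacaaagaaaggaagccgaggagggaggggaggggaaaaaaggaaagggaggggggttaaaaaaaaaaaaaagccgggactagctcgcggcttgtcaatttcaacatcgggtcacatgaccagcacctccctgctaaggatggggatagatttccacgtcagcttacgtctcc
The Hoxd13 stretch holds 2 words, both on the opposite strand, and the other two hold 1 each.

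All 4 lists were denser in the Hox windows than over the genome, and the 3T3 lists most of all. Over the 4 windows there were 14.5 CTCF peaks per 100 kb in 3T3, against 1.73 over the whole list, 8.35 times as many. For 3T3 CTCFL the values were 7.08 and 0.636, a ratio of 11.1. P19 CTCF had 4.77 peaks per 100 kb against 1.22 (3.90 times), and P19 CTCFL 1.38 against 0.222 (6.22 times). By cluster, the density of 3T3 CTCF was highest in HoxA, at 17.8 peaks per 100 kb, and lowest in HoxB, at 10.5. The P19 CTCF list had its highest density in HoxD, at 6.92, and its lowest in HoxA, at 3.89. HoxA was thus the densest cluster for CTCF in the fibroblast list. Its last place in P19 rests on 7 peaks, beside 4.29 per 100 kb from 6 peaks in HoxC and 4.5 from 9 in HoxB. Counts this small do not rank these clusters.

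**Figure D1:**
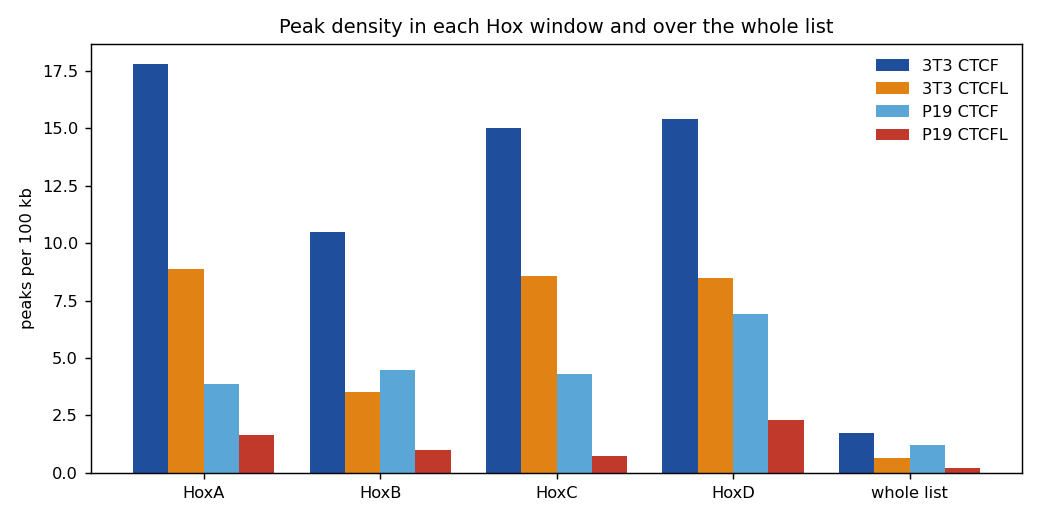
Peaks per 100 kb (vertical axis) in each Hox window and over each whole list, for the 4 lists; bars are counts from 1 library each and carry no error. 3T3 CTCF reaches 17.8 in HoxA against 1.73 over its list, and every bar of a Hox window stands above the bar of its whole list.

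To see how unusual such counts are, the genome was cut into stretches of the length of each window. Of the stretches as long as HoxA, 0.177% held at least the 32 3T3 CTCF peaks found there and 0.171% at least the 16 3T3 CTCFL peaks. In P19 the 7 CTCF and 3 CTCFL peaks of HoxA were reached by 8.05% and 3.78% of stretches. In HoxA the 3T3 counts were therefore rare in the genome and those of P19 less so. HoxC gave a like picture, with 0.584% for its 21 3T3 CTCF peaks, 0.345% for 12 3T3 CTCFL, 7.18% for 6 P19 CTCF and 20.3% for the 1 P19 CTCFL peak. HoxD was rich in all lists, with 0.473% for 20 3T3 CTCF peaks, 0.379% for 11 3T3 CTCFL, 1.37% for 9 P19 CTCF and 2.17% for 3 P19 CTCFL peaks. HoxB stood out least in 3T3, with 1.92% for 21 CTCF and 4.19% for 7 CTCFL peaks, against 4.96% for 9 CTCF and 9.86% for 2 CTCFL peaks in P19. These shares describe single libraries and neighbouring stretches are not independent.

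For 3T3 CTCF, HoxA and HoxD had few peaks on either side, whereas HoxB and HoxC had a rich side. In the stretches of equal length on either side of HoxA, 3T3 CTCF had 2 and 1 peaks beside the 32 inside, and the nearest peaks outside lay 127 kb below and 170 kb above. Around HoxD there were 0 and 1 beside 20, with the next 3T3 CTCF peak below at a distance of 351 kb. P19 CTCF was less set apart at HoxA, with 3 and 2 flank peaks beside 7 inside and the nearest at 32.2 kb below and 24.1 kb above. At HoxD it had 2 and 0 beside 9. The HoxB window had 14 3T3 CTCF peaks in its low flank, the side beyond Hoxb13, and 3 in its high flank. HoxC had 2 in the low flank and 19 in the high flank, beyond Hoxc4, against 21 inside. For P19 CTCF the flanks of HoxB held 13 and 8 peaks against 9 inside, and the high flank of HoxC held 12 against 6 inside. In P19 these 2 windows held fewer CTCF peaks than their richer flank.

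Peaks of 3T3 in the windows were mostly of ordinary or low score. The score that the authors' caller gave each peak was taken to be a p-value on a log10 scale multiplied by −10. Since depth and control library shape it, it is compared within a list only, and a percentile is the rank of a peak's score in its own list. Of the 94 3T3 CTCF peaks in the windows 55 scored below the median of their list, and their median was 90.6 against 104. The 31 P19 CTCF peaks had a median of 163 against 117, with 12 below the list median. For 3T3 CTCFL the medians were 84.5 and 83.7, and for P19 CTCFL 59.4 and 75.1. In the windows the median P19 CTCF peak thus ranked above its list median, and the median 3T3 CTCF peak below it.

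With all lists limited to scores of at least 100, 40 3T3 CTCF, 13 3T3 CTCFL, 23 P19 CTCF and 3 P19 CTCFL peaks were left in the windows. When the 5866 peaks of highest score were taken from each list, the length of the shortest list, the counts were 11, 13, 10 and 9. At equal length the windows held nearly as many CTCF peaks in P19 as in 3T3. The density still exceeded that of the shortened lists, by 7.61 times for 3T3 CTCF, 8.99 for 3T3 CTCFL, 6.92 for P19 CTCF and 6.22 for P19 CTCFL. The excess over the genome was thus present at both limits in every list, whereas the larger CTCF count of 3T3 was 94 against 31 with full lists, 40 against 23 with the score limit and 11 against 10 at equal length.

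**Figure D2:**
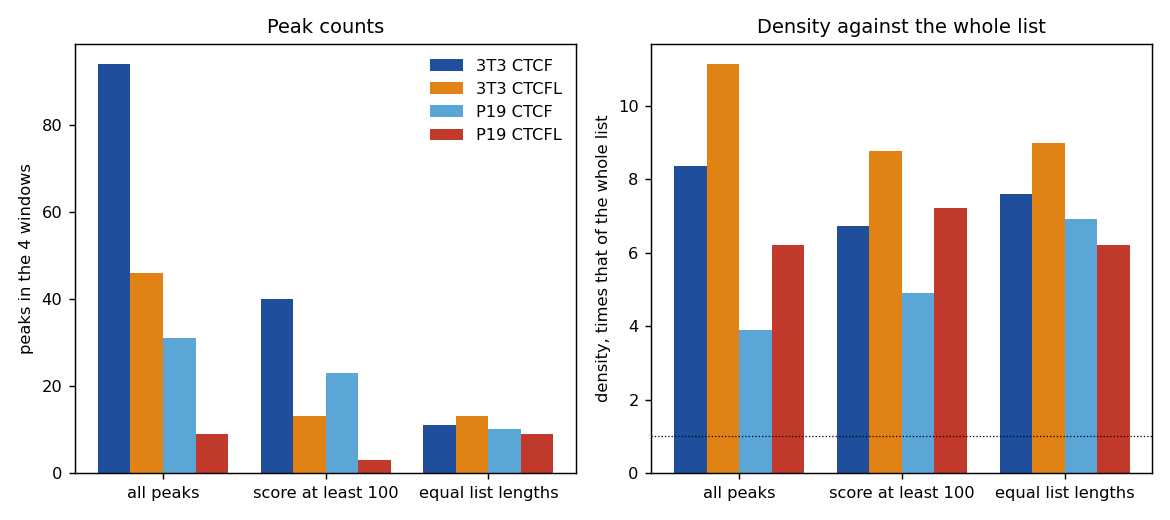
Left, number of peaks in the 4 Hox windows (vertical axis) for each list with all peaks, with scores of at least 100, and with every list as long as the shortest; right, density in the windows as a multiple of that of the same list. The counts of 94, 46, 31 and 9 become 11, 13, 10 and 9 at equal length, where the density is 6.22 to 8.99 times that of the list. With all peaks it runs from 3.90 times (P19 CTCF) to 11.1 times (3T3 CTCFL). The dotted line marks 1.

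The share of Hox peaks among the strongest of their list was not distinguishable from the background at these counts. Of the 3T3 CTCF peaks 9 of 94 were in the highest 10.0% of their list by score, or 9.57% (4.47 to 17.4), close to the background share. Those 9 were spread as 4 in HoxA, 3 in HoxB, 0 in HoxC and 2 in HoxD. Of the P19 CTCF peaks 4 of 31 were in the highest 10.0% (12.9%, 3.63 to 29.8), of the 3T3 CTCFL peaks 1 of 46 (2.17%, 0.0550 to 11.5, background 10.0%) and of the P19 CTCFL peaks 3 of 9 (33.3%, 7.49 to 70.1, background 10.0%). All 4 intervals include the background. Peaks in the windows were about as wide as in their lists for 3T3 CTCF (median 353 against 342 bp) and 3T3 CTCFL (262 against 283 bp), and somewhat wider for P19 CTCF (712 against 636 bp).

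**Figure D3:**
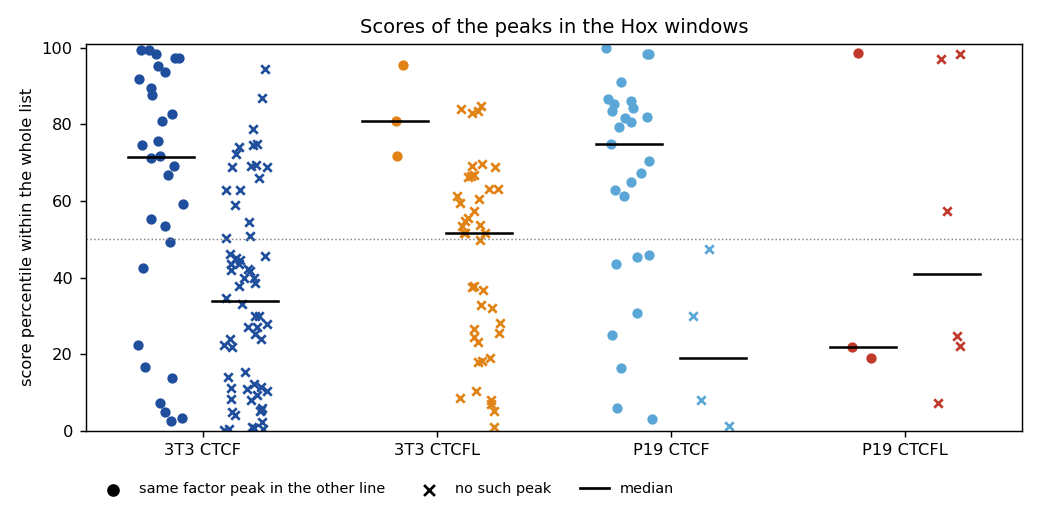
Percentile of each Hox peak's score within its own whole list (vertical axis), by list; circles have a peak of the same factor in the other cell line and crosses do not, black bars are medians and the dotted line is the list median. Among 3T3 CTCF peaks the 30 with P19 CTCF have a median percentile of 71.4 and the 64 without one of 33.9.

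Among the 8 shares of one list on another, that of P19 CTCF on 3T3 CTCF had an interval that left out the value of the whole list. Nearly all P19 CTCF sites in the clusters were also CTCF sites in fibroblasts: 27 of 31 P19 CTCF peaks overlapped a 3T3 CTCF peak, or 87.1% (70.2 to 96.4), against 57.2% of the whole P19 CTCF list. By cluster the counts were 7 of 7 in HoxA (interval 59.0 to 100%), 7 of 9 in HoxB (40.0 to 97.2), 5 of 6 in HoxC (35.9 to 99.6) and 8 of 9 in HoxD (51.8 to 99.7). The intervals of HoxB, HoxC and HoxD include the share of the list. Beside it stands the density of the partner list, since 3T3 CTCF peaks covered 5.87% of the bases of the windows and 0.702% of the chromosomes, and its part in the overlap was not tested. With scores of at least 100 the share was 73.9% (51.6 to 89.8) against 54.5%, and at equal list length 5 of 10 (50%, 18.7 to 81.3) against 31.3%, and both of these intervals include the share of the list.

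Seen from 3T3 the recurrence was lower. Of the 94 3T3 CTCF peaks 30 overlapped a P19 CTCF peak, 31.9% (22.7 to 42.3), against 41.7% of the whole list. HoxD had the highest share, 9 of 20, and HoxA the lowest, 8 of 32. The 3T3 peaks that recurred were the stronger ones, with a median score of 194 against 79.5 for the 64 that did not, as over the whole list (177 against 85.2). With scores of at least 100 the share was 45.0% in the windows and 43.6% over the list. The interval with full lists includes the share of the whole list. With P19 peaks of either factor counted, the same 30 of 94 peaks met one, against 43.9% of the whole list, a value above the interval.

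Merged regions show the same asymmetry. Both lines had CTCF at 27 of 114 regions, 23.7% (16.2 to 32.6), against 28.0% of all regions. CTCF in 3T3 alone was found at 63, 55.3% (45.7 to 64.6), against 39.9%, and CTCF in P19 alone at 4, 3.51% (0.964 to 8.74), against 21.0%. The remaining 20 regions, 17.5% (11.1 to 25.8), had CTCFL without CTCF in either line, against 11.1%. Regions with CTCF in P19 alone thus made up a smaller share of the clusters than of the genome, by an interval that leaves out the latter. The denser 3T3 lists of the windows stand beside this as well, and their part in it was not tested. With either factor counted, 82 regions (71.9%, against 48.1% of all regions) had peaks of 3T3 only, 5 (4.39% against 22.3%) had peaks of P19 only and 27 (23.7% against 29.6%) had both lines.

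**Figure D4:**
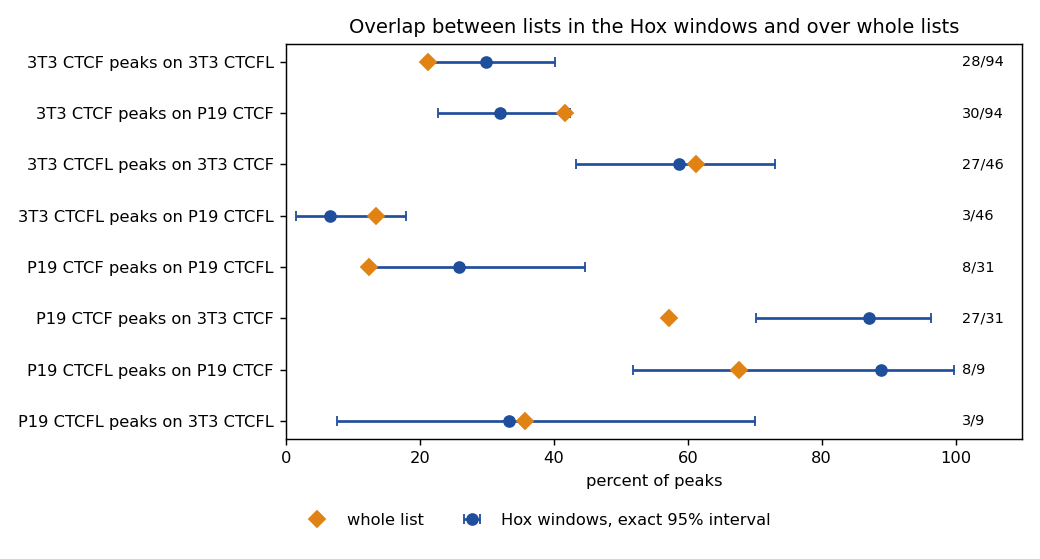
Percent of peaks (horizontal axis) that overlap a peak of the second list named, in the Hox windows (circles, with exact 95% intervals for counting error and the counts at right) and over the whole list (diamonds). P19 CTCF on 3T3 CTCF, 27 of 31, is the row whose interval leaves out the whole-list value, 57.2%.

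CTCFL peaks of 3T3 lay on CTCF in the windows about as often as elsewhere. The other same-line shares were above those of their lists, with intervals that include the list values. In 3T3, 27 of 46 CTCFL peaks overlapped CTCF, 58.7% (43.2 to 73.0), against 61.3% of the list. In P19 it was 8 of 9, 88.9% (51.8 to 99.7), against 67.6%. Taken from CTCF, 28 of 94 3T3 peaks carried CTCFL, 29.8% (20.8 to 40.1), against 21.2%, and 8 of 31 P19 peaks did, 25.8% (11.9 to 44.6), against 12.3%. Both of these shares were above those of the lists, but each interval includes the value of its list, as does that of P19 CTCFL on CTCF. The partner lists were denser in the windows here too. 3T3 CTCFL covered 1.97% of their bases and 0.220% of the chromosomes, P19 CTCFL 0.892% and 0.136%, and P19 CTCF 3.44% and 0.790%. The part of this in the overlaps was not tested. HoxC and HoxA had the highest 3T3 share, 8 of 21 and 11 of 32, and HoxB the lowest, 3 of 21. The CTCF peaks with CTCFL had a median score of 160 and those without 87.7, a smaller gap than over the whole list (233 and 94.2).

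Overlap of CTCFL between the lines was low in the windows, as it was over the lists. Of the 46 3T3 CTCFL peaks 3 met a P19 CTCFL peak, 6.52% (1.37 to 17.9), against 13.3% of the list, and of the 9 P19 peaks 3 met a 3T3 CTCFL peak, 33.3% (7.49 to 70.1), against 35.7%. Both intervals include the share of the list. These 3 regions, 1 each in HoxA, HoxB and HoxC, were also the only ones with peaks in all 4 lists, 2.63% of the regions in the windows against 2.06% of all regions. None of the 11 3T3 CTCFL peaks of HoxD met a P19 CTCFL peak, and none of the 3 P19 peaks there met one of 3T3. Another 19 regions (16.7%, 10.3 to 24.8, against 9.56% of all regions) held 3T3 CTCFL and nothing else, with scores from 50.3 to 115 and a median of 70.6. The 21 regions with both factors in 3T3 and no P19 peak (18.4%, 11.8 to 26.8, against 9.11%) had CTCFL scores from 52.3 to 197 and a median of 85.7. The intervals of these 2 classes leave out the share of all regions, and the part of the denser 3T3 lists in this was not tested.

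**Figure D5:**
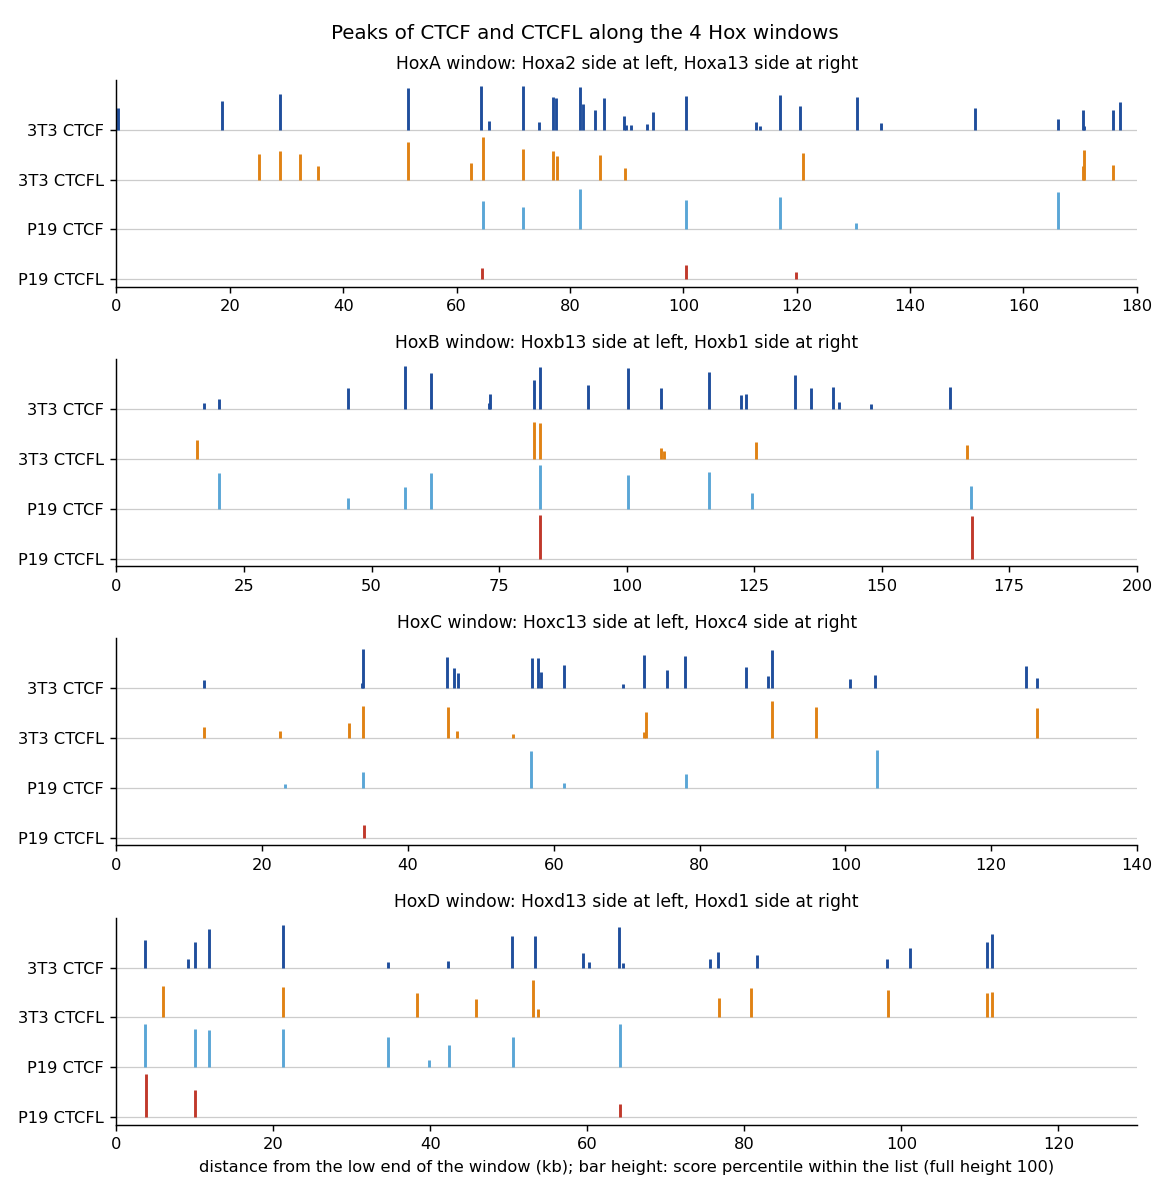
Centres of all peaks along each Hox window, in kb from its low end (horizontal axis), with 1 row per list; the height of a bar is the percentile of its score within the list. P19 CTCF has 7 peaks in the lowest of 3 equal parts of HoxD, on the Hoxd13 side, and 0 in the highest part, where 3T3 CTCF has 4.

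Fibroblast CTCF sites were most frequent in the middle of 3 equal parts of each window. That part held 11 of 21 3T3 CTCF peaks in HoxB, 12 of 21 in HoxC and 9 of 20 in HoxD. In HoxA 19 of 32 3T3 CTCF peaks lay in the middle part, 4 in the low part on the Hoxa2 side and 9 in the high part on the Hoxa13 side. The strongest were chr6:52153715-52155033 and chr6:52161307-52162040, both with a score of 3100 that 505 peaks of this list share, and chr6:52171253-52172414 with 2204. All 3 were CTCF sites in P19 as well, with P19 scores of 145, 108 and 300. The first of them carried CTCFL in both lines, with 510 in 3T3 and 56.8 in P19, and the second CTCFL in 3T3 alone, at 105. The third had no CTCFL in either line although its P19 CTCF score was the highest of HoxA. Strong CTCF sites of HoxA thus included some with CTCFL in both lines, in 1 line and in neither.

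Another strong site, chr6:52140993-52141810, scored 1238 for CTCF and 197 for CTCFL in 3T3 and had no P19 peak. It lay in a run of 64.3 kb, from the low bound to position 52154290, without P19 CTCF, in which 3T3 had 4 CTCF and 6 CTCFL peaks. Within that run chr6:52118631-52119066 had both factors in 3T3 (269 and 96.8). CTCFL alone was found there at chr6:52115085-52115223 (86.0), chr6:52122185-52122604 (84.8), chr6:52125421-52125681 (62.6) and chr6:52152435-52152646 (67.9). The percentiles of the 3T3 CTCFL peaks in this run were between 23.1 and 84.7. The P19 CTCFL peak of the region with all 4 lists begins at 52154150, just inside the end of the run.

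From the middle of HoxA towards Hoxa13 the CTCF sites shared by the lines were chr6:52190089-52190927, chr6:52206723-52207465, chr6:52219838-52221120 and chr6:52255801-52256459. Their 3T3 scores were 222, 231, 196 and 61.8, and their P19 scores 149, 174, 55.0 and 236. The last was at percentile 16.5 of the 3T3 list and 83.4 of the P19 list. Lists of different length and unknown depth give no measure of change in such ranks. P19 CTCFL was found on the first of the 4 (59.4) and alone at chr6:52209632-52210098 (52.6), both scores in the lower part of that list. No 3T3 CTCFL peak lay on any of the 4, so CTCFL at the first was seen in P19 alone.

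The other 3T3 CTCFL sites of HoxA were a group in the middle and a group at the high end. In the middle, chr6:52166828-52167326 (CTCF 201, CTCFL 98.0), chr6:52167451-52167765 (180 and 83.4) and chr6:52179495-52179999 (68.8 and 60.6) had both factors, and chr6:52175211-52175375 (84.2) had CTCFL alone. Farther on, CTCFL stood alone at chr6:52210977-52211246 (89.5), after which 3T3 CTCFL was missing for 49.1 kb. At the high end, chr6:52260354-52260554 (87.4 and 63.2), chr6:52260668-52260851 (50.3 and 99.8) and chr6:52265656-52265901 (87.4 and 64.1) again had both. None of these 8 regions had a P19 peak.

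HoxB held the strongest P19 CTCFL peak of the clusters. At chr11:96122690-96123465 all 4 lists had a peak, with scores of 1380 for CTCF and 162 for CTCFL in 3T3 and of 496 and 311 in P19. These are percentiles of 95.1, 80.9, 98.4 and 98.8, so it ranked high in each list. Just before it, chr11:96121671-96122038 had both factors in 3T3 (144 and 178) and none in P19. On the Hoxb1 side, chr11:96207130-96208074 had peaks in P19 and none in 3T3, with a CTCFL score of 252 (percentile 97.2) above a CTCF score of 112 (percentile 47.5 of its own list). It was the sole region of the 4 clusters with both factors in P19 and no peak in 3T3, and the nearby 3T3 CTCFL peak chr11:96206654-96206904 ended just before it.

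CTCF without CTCFL was shared by the lines at 6 further HoxB regions. The strongest in 3T3 was chr11:96096235-96096871, with 2767 in 3T3 and 105 in P19, followed by chr11:96139830-96140598 with 1101 and 192. Then came chr11:96155658-96156435 with 336 and 226, chr11:96101417-96102006 with 301 and 220, chr11:96085074-96085665 with 90.9 and 65.6, and chr11:96059661-96060367 with 60.3 and 212. The last, at the Hoxb13 end, was at percentile 13.9 of the 3T3 list and 79.2 of the P19 list. Single P19 CTCF without a 3T3 peak was found at chr11:96164277-96165024 (82.4). After it P19 had no CTCF for 42.1 kb, in which 3T3 had 6 CTCF and 2 CTCFL peaks.

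CTCFL of 3T3 was sparse in HoxB. Beside the 2 regions described above it had chr11:96146595-96146887 with CTCF (89.9 for CTCF and 60.2 for CTCFL). Alone it had chr11:96055648-96055968 (70.6), chr11:96147180-96147344 (54.7), chr11:96165078-96165474 (68.4) and chr11:96206654-96206904 (63.6). All but the strong pair scored below the median of the 3T3 CTCFL list. No 3T3 CTCFL peak was present over the 65.9 kb between positions 96055968 and 96121840.

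HoxC had no very strong CTCF peak: its highest 3T3 score was 579, the lowest such maximum of the 4 clusters, and its median 89.2. That highest peak belonged to chr15:102773488-102774203, on the Hoxc13 side, which had a peak in all 4 lists: 579 and 117 for CTCF and CTCFL in 3T3, and 83.7 and 58.0 in P19. It held the only P19 CTCFL peak of the cluster. CTCF without CTCFL was shared by the lines at chr15:102796581-102797292 (164 in 3T3, 228 in P19), chr15:102801026-102801727 (103 and 52.5), chr15:102817827-102818352 (193 and 75.6) and chr15:102843734-102844977 (66.9 and 255). The last, towards Hoxc4, was the strongest P19 site of HoxC and at percentile 22.4 in 3T3. P19 CTCF stood alone at chr15:102762835-102763278 (51.0), and no P19 CTCF was found beyond position 102844977.

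Fibroblast CTCFL was frequent in HoxC, with 12 peaks. The strongest lay at chr15:102829589-102830245, with 455 for CTCF and 183 for CTCFL and no P19 peak. Both factors were also found in 3T3 alone at chr15:102784953-102785770 (179 and 113), chr15:102866185-102866450 (61.1 and 104), chr15:102751771-102752280 (57.2 and 60.3), chr15:102786591-102786939 (72.9 and 53.4) and chr15:102812099-102812585 (216 and 52.3). At the second of these the CTCFL score was above the median of its list and the CTCF score well below that of its own. CTCFL alone was found at chr15:102835868-102836113 (114), chr15:102812628-102812813 (86.4), chr15:102771817-102772052 (65.2), chr15:102762316-102762556 (54.4) and chr15:102794261-102794413 (50.3).

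In HoxD, P19 CTCF lay with 7 of 9 peaks in the part of the window on the side of Evx2 and Hoxd13, genes of limb and genital development, with 2 in the middle and 0 on the Hoxd1 side. CTCF in 3T3 was spread over the 3 parts as 7, 9 and 4 peaks, and 3T3 CTCFL as 3, 5 and 3. From position 74554497 to the high bound, over 65.5 kb, P19 had no CTCF peak while 3T3 had 7 CTCF and 5 CTCFL peaks. In HoxA the longest run without P19 CTCF likewise lay at the head-side end, by Hoxa2, and the longest run without P19 CTCF in HoxC, 35.0 kb, also lay at its head-side end, towards Hoxc4. In HoxB it lay inside the window. The runs were cut at the window bounds, and for HoxB and HoxC their placement depends on these bounds. At the low end of HoxC, P19 CTCF was absent for 22.8 kb inside the bound and 102 kb below it. At its high end it was absent for 35.0 kb inside and 27.9 kb above. At the high end of HoxB these lengths were 32.1 and 28.8 kb. The runs of HoxA and HoxD went on for 32.2 kb below and 182 kb above their windows. Counts this small in single libraries describe these lists only.

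On the Hoxd13 side 4 CTCF sites followed each other that were shared by the lines. These were chr2:74493203-74494162 (129 in 3T3, 495 in P19), chr2:74499484-74500429 (117 and 258), chr2:74501520-74501977 (486 and 242) and chr2:74510866-74511682 (2175 and 250). The first was at percentile 98.4 of the P19 list and 59.1 of the 3T3 list, and the last at 85.4 and 97.4. Among the 4, the strongest in P19 was thus the first and the strongest in 3T3 the last. The first 2 carried P19 CTCFL, at 293 and 81.9, and the last carried 3T3 CTCFL, at 104. No site of the 4 had CTCFL in both lines.

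The strongest P19 CTCF peak of all Hox windows lay in the middle of HoxD, at chr2:74553743-74554711, with a score of 831 (percentile 99.9). It scored 803 in 3T3 (percentile 91.8) and had P19 CTCFL at 58.1 but no 3T3 CTCFL. Weaker shared CTCF sites were chr2:74540197-74540698 (178 in 3T3, 155 in P19), chr2:74524211-74525012 (53.0 and 163) and chr2:74532051-74532556 (54.9 and 109), and P19 CTCF stood alone at chr2:74529585-74530020 (56.8). Both factors were found in 3T3 alone at chr2:74542586-74544050 (176 for CTCF and 187 for CTCFL), chr2:74601298-74601903 (221 and 85.7), chr2:74600711-74601217 (115 and 84.2), chr2:74588050-74588426 (58.9 and 94.2) and chr2:74566576-74566825 (74.5 and 71.0). CTCFL alone was found at chr2:74495829-74496136 (115), chr2:74570729-74570870 (99.8), chr2:74528191-74528381 (84.2) and chr2:74535569-74535938 (69.7).

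Across the clusters, 18 of the 27 regions with CTCF in both lines had no CTCFL in either line, beside 13987 of 18411 such regions in the series. These 18 were 15.8% of the regions in the windows, against 21.3% of all regions. CTCFL was present in both lines at 3 of the 27, in P19 alone at 4 (3.51% against 2.61%) and in 3T3 alone at 2 (1.75% against 2.06%). Of the 63 regions with CTCF in 3T3 alone, 21 carried 3T3 CTCFL. The other 42 of these 63, 36.8% of the regions in the windows against 29.5% of all regions, held 3T3 CTCF and no other peak, with scores from 50.1 to 223.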

How the data were processed

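Peak lists of CTCF and CTCFL from 3T3 and P19 cells, 1 library each, were analysed. Per the submitters' processing notes, MACS 1.4, Bowtie, SAMtools and FastQC were used, with builds mm9 and hg19. No roles are named, and mm9 was taken for these mouse cells. Not given in the sources used here are the control library, aligner settings, pooling and depth. Each list gives peak positions and the deposited score of the authors' caller, at least 50. Starts were converted to count from 1. No values were normalized and no fit was made.

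Overlap meant at least 1 bp. Intervals are Clopper-Pearson at 95%. Densities used the summed chromosome lengths up to the last peak, without the mitochondrial peak. Regions were named where they held CTCFL, CTCF of both lines, or one of the 3 highest CTCF scores of a list in a cluster. The 3 regions with P19 CTCF alone fall outside this rule and were named after their values were seen. Members, windows and rules were chosen with earlier results of these data known, and promoter words after the files were seen. On simulated peaks 3 of 3 planted overlaps were recovered, and 12 of 12 overlap counts equalled those of bedtools. Samples without a list here (3T3 without the plasmids, P19 input) were not analysed here. Planned promoter and motif counts of peaks were not run for want of an mm9 genome. Alternatives were other overlap rules, score limits, equal list lengths, other bounds and single clusters. Tools were bedtools 2.31.1, Python 3.11.15, SciPy 1.17.1, pandas 2.3.3, numpy 2.4.6 and matplotlib 3.10.9.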

Additional observations from a re-analysis of the deposited data

Results flagged for a closer look

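CTCF peaks of the windows recurred in the other line less often with CTCFL than without it in 3T3, by −14.9 points (6 of 28 against 24 of 66), and more often in P19, by 0.543 points (7 of 8 against 20 of 23). Over the whole lists the differences were −17.4 points in 3T3 and 22.6 points in P19, so opposite signs were found there as well, while the sign of P19 in the windows is not settled. The pair was singled out because the 2 values have opposite signs. With 1 library each this difference was not tested, and the P19 value changes sign under 6 of the other settings run.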

How the results depend on the processing

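Of the recomputed densities, shares and percentages of stretches, 200 stayed close to the value of the full lists (except for densities, within its interval) and 51 moved farther. Some intervals are wide, such as 7.49 to 70.1 for P19 CTCFL on 3T3 CTCFL. Placing peaks by their centre left all 15 values as they were. The tally is thus no measure of how robust the results are. Score limits remove weak peaks by construction, and for the other settings the cause was not tested. With scores of at least 100 the density per 100 kb was 6.15 for 3T3 CTCF, 2 for 3T3 CTCFL and 0.462 for P19 CTCFL. The share of 3T3 CTCF on P19 CTCF was then 18 of 40 (45%, whole list 43.6%). That of 3T3 CTCFL on CTCF was 10 of 13 (76.9%, whole list 78.1%). For P19 CTCFL on CTCF it was 3 of 3 (100%, interval 29.2 to 100, whole list 65.7%). Of the regions 35.4% had CTCF in both lines, 52.1% CTCF or CTCFL of 3T3 alone and 6.25% no CTCF. Shares over all regions were not computed with this limit, and those of the full lists are no background for these values. At equal list length the densities were 1.69 for 3T3 CTCF, 2 for 3T3 CTCFL and 1.54 for P19 CTCF. The shares were 6 of 11 for 3T3 CTCF on CTCFL (54.5%, list 43.4%) and 5 of 11 for 3T3 on P19 CTCF (45.5%, list 31.5%). They were 3 of 13 for 3T3 on P19 CTCFL (23.1%, list 27.5%) and 5 of 10 for P19 on 3T3 CTCF (50%, list 31.3%). For P19 CTCFL on CTCF the share was 4 of 9 (44.4%, list 28.1%). Of the regions 42.3% were in 3T3 alone and 38.5% without CTCF, again with no share over all regions computed. Counting any peak within 1000 bp, 40.4% of 3T3 CTCF peaks had CTCFL, and no whole-list share was computed for this setting.

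In HoxA alone 7 of 7 P19 CTCF peaks met 3T3 CTCF (100%, interval 59.0 to 100). HoxB alone gave 3.5 3T3 CTCFL peaks per 100 kb and CTCFL on 3 of 21 3T3 CTCF peaks (14.3%, interval 3.05 to 36.3, whole list 21.2%). CTCF lay there on 3 of 7 3T3 CTCFL peaks (42.9%, interval 9.90 to 81.6, whole list 61.3%). It lay on 2 of 2 P19 CTCFL peaks (100%, interval 15.8 to 100). HoxC alone gave 0.714 P19 CTCFL peaks per 100 kb, which is a single peak. It met both P19 CTCF and 3T3 CTCFL (1 of 1 each, 100%, interval 2.50 to 100). HoxD alone gave 2.31 P19 CTCFL peaks per 100 kb. Of these, 3 of 3 met P19 CTCF (100%, interval 29.2 to 100) and 0 of 3 met 3T3 CTCFL (0%, interval 0 to 70.8). In HoxD 9 of 20 3T3 CTCF peaks met P19 CTCF (45%, interval 23.1 to 68.5, whole list 41.7%). There 0 of 11 3T3 CTCFL peaks met P19 CTCFL (0%, interval 0 to 28.5, whole list 13.3%). Of the 24 regions of HoxD, 33.3% had CTCF in both lines (all regions 28.0%) and 62.5% were of 3T3 alone (all regions 48.1%). Without HoxA, 100% of P19 CTCFL peaks met CTCF (interval 54.1 to 100). Whole-list shares were 57.2% for P19 CTCF on 3T3 CTCF, 67.6% for P19 CTCFL on P19 CTCF and 35.7% for P19 CTCFL on 3T3 CTCFL.

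Restricting the stretches to those with a peak of any list gave 11.2% and 5.25% for P19 CTCF and CTCFL in HoxA. In the order 3T3 CTCF, 3T3 CTCFL, P19 CTCF, P19 CTCFL it gave 2.60%, 5.67%, 6.71% and 13.3% for HoxB, 0.865%, 0.511%, 10.7% and 30.1% for HoxC, and 0.716%, 0.574%, 2.07% and 3.29% for HoxD. Stretches shifted by their middle gave 0.582% for 3T3 CTCF in HoxD. The P19 difference in recurrence by CTCFL was −8.33 points with scores of at least 100, −2.38 with bounds narrowed by 20 kb, −3.80 within 1000 bp, −35.7 in HoxB alone, −3.17 without HoxC and −8.24 without HoxD.

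No paired analysis was possible because only 1 library stood behind each list, so that leaving one out was not possible either. Promoter and motif alternatives were not run without a genome of the build. Depth is unknown, so a missing peak does not show that a site was unbound.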
